A study of Mus musculus with 12 samples.

Results

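The genes described here are *Pear1*, which encodes platelet endothelial aggregation receptor 1, its multiple-EGF-domain relatives *Megf6*, *Megf10* and *Megf11*, and *Ppp1ca*, *Ppp1cb* and *Ppp1cc*, the genes of the catalytic subunits of protein phosphatase 1 (PP1). They were taken by gene symbol and are 7 of the 40760 genes in the count table. All 7 passed the filter on low counts, through which 17418 genes were tested, and the lowest count of any of them in a library was 14 (*Megf11*). The data are bulk RNA-seq of Pdgfra+ (CD140a+) cells sorted by flow cytometry from the lungs of male mice on a C57BL/6 background, aged 8 to 12 weeks unless otherwise indicated in the study's methods. There were 12 libraries, 3 in each of the groups WT vehicle and WT bleo, Pear1-/- vehicle and Pear1-/- bleo, where bleo is bleomycin given into the airways, a standard way to bring about lung fibrosis in mice. Between 6702948 and 10447101 reads per library were counted on genes. The Pear1-/- mice carry a knockout-first allele in all cells, in which a splice acceptor, LacZ and neomycin cassette lies in an intron and is meant to trap the transcript, and both Pear1-/- groups share it. The number of mice behind a library and the day of collection of these cells are not given in the sources used here, so the p-values measure the spread between these libraries, which may be technical.

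PEAR1, MEGF10 and MEGF11 are single-pass membrane proteins with a row of EGF-like repeats outside the cell, and MEGF6 carries many of the same repeats. PEAR1 is known as a contact receptor of platelets and endothelial cells, MEGF10 as a receptor that lets astrocytes and other cells engulf dying cells and synapses, and MEGF11 as a partner of MEGF10 in the spacing of retinal neurons. PP1 is one of the main serine/threonine phosphatases of every cell, and each of its catalytic subunits is steered to its substrates by regulatory subunits, which also set whether it is active.

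WT vehicle replicate 2 stood apart from its group. Across all genes its counts differed from those of WT vehicle replicates 1 and 3 by a chi-square of 21.2 and 21.8 per degree of freedom (1 is counting noise alone), and from the 3 libraries labelled Pear1-/- vehicle by 1.73 to 2.67. Libraries within WT bleo differed by 1.35 to 1.49 and within Pear1-/- bleo by 1.37 to 1.47, near counting noise. WT vehicle replicates 1 and 3 differed by 1.58. Within Pear1-/- vehicle, replicates 1 and 2 differed by 1.44 from each other and by 4.31 and 4.82 from replicate 3. The labels were kept. For the 7 genes the values without WT vehicle replicate 2 are given where it changed a call, and for some other estimates. *Pdgfra*, the sorting marker, was detected in every library, as were all 8 mesenchymal markers looked at, and so were all 10 leukocyte, all 8 endothelial and all 8 epithelial markers, none of which was at 0 counts throughout. The summed level of the leukocyte markers ran from 2534 to 3328 CPM (counts scaled to a common library size) in vehicle-treated WT and from 3269 to 3486 in vehicle-treated Pear1-/-, and under bleo from 11819 to 12007 in WT and from 5392 to 5512 in Pear1-/-. The mesenchymal markers summed to 18058 to 18958, 17819 to 18121, 12402 to 12524 and 32380.4 to 33149 CPM in the same order. The high sum in Pear1-/- bleo was that of the collagen genes *Col1a1*, *Col1a2* and *Col3a1* above all, while *Tcf21* and *Inmt* were not called between the bleo groups and *Dcn*, whose bleo groups did not overlap (6857 to 7087 normalized counts in WT and 7690 to 7728 in Pear1-/-), was not called with all libraries and was called without WT vehicle replicate 2 (0.13, adjusted p = 0.0102). In bulk libraries fewer cells of a type and less RNA per cell cannot be told apart.

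*Pear1* (ENSMUSG00000028073, chr3:87747890-87824306 on the minus strand in GRCm38) was read first, since its counts could check the genotype labels. It had 576, 545 and 519 normalized counts in the 3 WT vehicle libraries (replicates 1 to 3, counts divided by the deposited size factor of the library) against 511, 501 and 547 under the label Pear1-/- vehicle. The vehicle groups overlapped, and edgeR's quasi-likelihood test put the log2 fold change of Pear1-/- over WT at -0.08 (SE 0.077, adjusted p = 0.49). Without WT vehicle replicate 2 the same test gave -0.008 (adjusted p = 0.942). Under bleo the WT libraries had 256, 239 and 266 normalized counts and the libraries labelled Pear1-/- bleo had 355, 372 and 344, so every library labelled Pear1-/- lay above every WT library there. With unscaled library totals the vehicle groups did not overlap, at 58.9 to 70.9 CPM in WT and 53.9 to 57.5 under the Pear1-/- label, and the estimate was -0.23 (adjusted p = 0.0652). No setting called the count of the whole gene lower under the knockout label in vehicle, and each called it higher in bleo, which goes against what the label describes. The methods place the cassette after exon 6 and name no transcript. In each of the 5 principal transcripts of *Pear1*, 81.5% to 85.8% of the exon bases lie after exon 6. Where *Pear1* transcripts end in these libraries was not tested. The deposited value pools all exons, and reads before and after the cassette were not told apart. Pear1-/- is therefore used here as the name of a label, and every direction between genotypes is one between libraries labelled Pear1-/- and libraries labelled WT. The study had other measures by genotype, which these counts do not replace. It stained cultured lung fibroblasts of both genotypes for PEAR1 protein by flow cytometry. By qPCR it reported higher levels of collagen and matrix genes in Pear1-/- bleo than in WT bleo.

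*Pear1* fell under bleo in both genotypes. Its mean went from 547 ± 28.8 to 254 ± 14.0 normalized counts in WT (SD, n = 3), a log2 fold change of -1.09 (SE 0.080, adjusted p = 6.31e-10; -1.03 without WT vehicle replicate 2), and from 519.7 ± 24.0 to 357 ± 14.2 between the libraries labelled Pear1-/-, a log2 fold change of -0.54 (SE 0.078, adjusted p = 8.32e-06). In both, bleo and vehicle libraries did not overlap. The fall was smaller under the Pear1-/- label, and the test of that difference, the genotype by bleo interaction, gave 0.56 (SE 0.11, adjusted p = 0.000655) on the log2 scale, with 0.48 (adjusted p = 0.000396) without WT vehicle replicate 2. Between the bleo groups *Pear1* was higher under the Pear1-/- label by 0.48 (SE 0.081, adjusted p = 7.54e-05). *Pdgfra* had the same order of group means, 4565 ± 325, 4165 ± 39.1, 1360.1 ± 29.9 and 2392 ± 18.8 normalized counts, and differed by 0.80 (SE 0.067, adjusted p = 1.04e-08) between the bleo groups. *Pecam1*, an endothelial adhesion molecule, had log2 fold changes of -0.54 (adjusted p = 5.77e-06) and -0.76 (adjusted p = 7.86e-08) under bleo in WT and Pear1-/-, and all 8 endothelial markers were lower in both, beside 36.5% and 33.1% of all tested genes, the weakest being *Vwf* in WT (-0.21, adjusted p = 0.0455). In the fits that left out 1 library, whichever it was, 6 to 7 of the 8 were called in WT. Their summed level was 501 to 516 CPM in vehicle-treated WT, 501 to 542 in vehicle-treated Pear1-/-, 273 to 289 in bleo-treated WT and 277 to 299 in bleo-treated Pear1-/-, so it overlapped between the bleo groups, in which *Pear1* did not. The platelet integrin gene *Itga2b* fell under bleo in both genotypes (-1.60 and -0.71) and was higher under the Pear1-/- label in bleo (0.78, adjusted p = 0.00165), and of the 5 platelet markers tested 4 were lower and 1 higher in WT bleo, beside 36.5% and 31.4% of all genes. The 6 platelet markers summed to 35.8 to 36.5, 34.3 to 35.7, 76.5 to 79.7 and 41.6 to 43.4 CPM, and the high sum in WT bleo was mostly that of *Pf4*, a chemokine gene, which was higher by 2.67 there. The part of these cells in the level of *Pear1* was not tested.

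**Figure D1:**
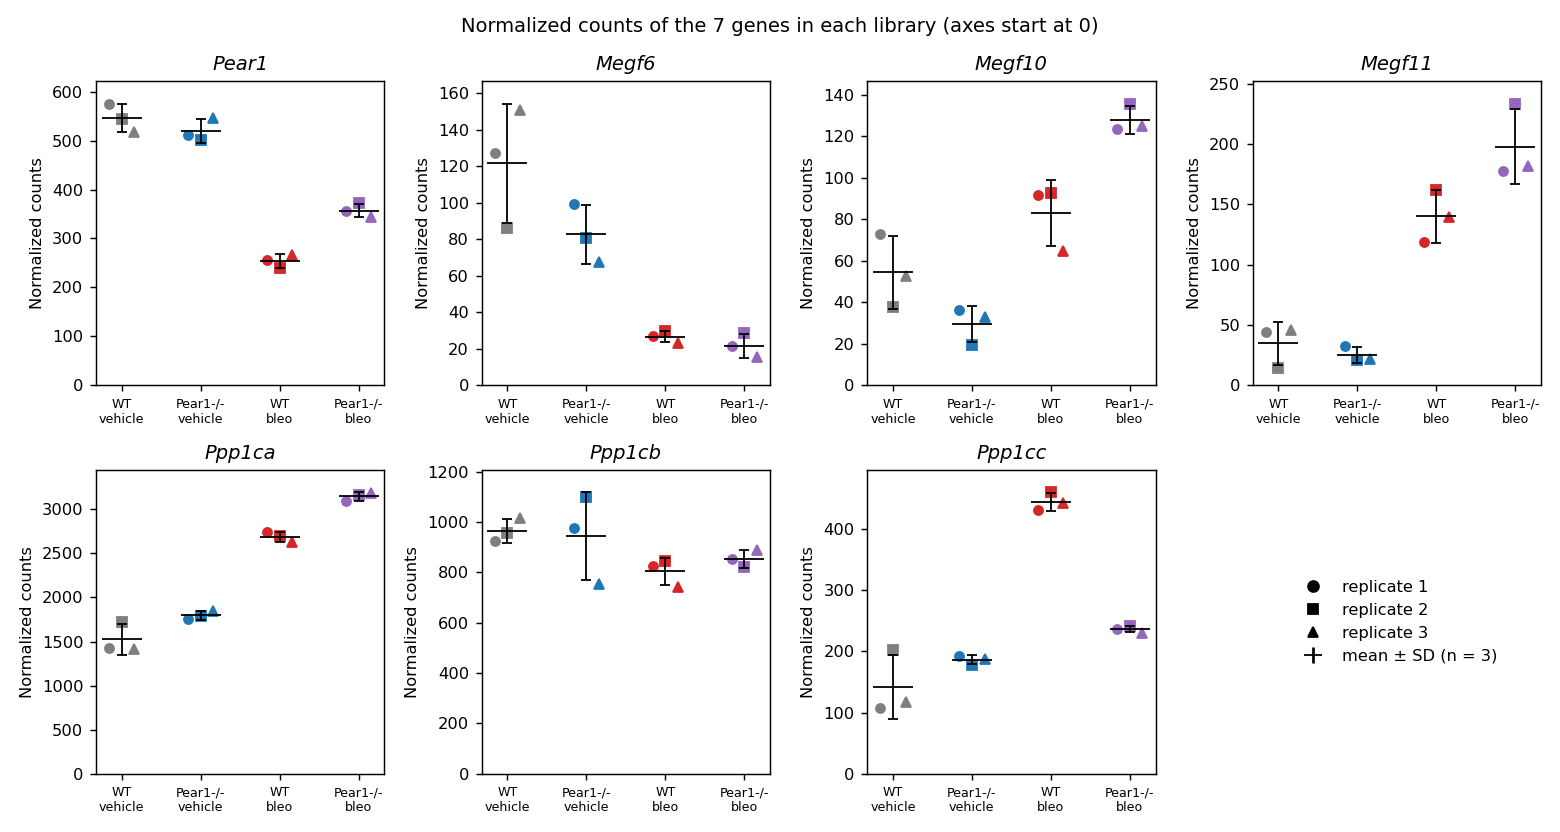
Normalized counts (y axis, from 0) of each of the 7 genes in the 12 libraries, with 1 point per library, shaped by replicate number, and a bar for the group mean ± SD (n = 3). *Pear1* lay between 239 and 266 in WT bleo and between 501 and 576 in the vehicle libraries, and *Ppp1cc* lay at 202 in WT vehicle replicate 2 against 107 and 118 in the other WT vehicle libraries.

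The sequence before the *Pear1* start is shown with that of *Ppp1cc*, because these genes moved in opposite directions with bleo in WT and both moved less under the Pear1-/- label. The 250 bases before the start are from RefSeq (GRCm38.p6), which had an entry for 4 of the 7 genes (*Pear1*, *Megf6*, *Ppp1cb* and *Ppp1cc*), and capitals mark matches on either strand to GGGCGG, the core of GC boxes.
*Pear1* promoter, chr3:87768954-87769203, minus strand: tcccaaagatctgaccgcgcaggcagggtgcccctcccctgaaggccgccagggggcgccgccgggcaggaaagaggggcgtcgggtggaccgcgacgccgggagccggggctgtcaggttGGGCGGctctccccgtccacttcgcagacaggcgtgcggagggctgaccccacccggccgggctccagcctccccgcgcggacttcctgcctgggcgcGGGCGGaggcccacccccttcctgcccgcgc
*Ppp1cc* promoter, chr5:122158025-122158274, plus strand: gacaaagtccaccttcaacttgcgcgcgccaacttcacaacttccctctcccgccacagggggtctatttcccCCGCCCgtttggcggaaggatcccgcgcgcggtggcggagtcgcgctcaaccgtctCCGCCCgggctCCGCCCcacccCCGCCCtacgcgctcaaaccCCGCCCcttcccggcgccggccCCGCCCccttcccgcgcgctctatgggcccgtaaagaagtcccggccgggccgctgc
The *Pear1* stretch held 2 matches, 31 and 129 bases before the start, and the *Ppp1cc* stretch held 6, between 57 and 177 bases before it, while *Megf6* and *Ppp1cb* had 2 each. Of all 32851 promoters of this length 32.7% held the motif. The bases G and C made up 76.8% of the *Pear1* stretch, 72% of *Ppp1cc*, 63.2% of *Megf6* and 65.2% of *Ppp1cb*. Over all promoters the median was 52.4% (quartiles 45.2% and 61.2%). Motif shares among promoters of like base content were not counted. 3 further motifs were searched on both strands. The TATA box letters TATAAA occurred in none of the 4 stretches and in 12.4% of all promoters. The AP-1 element TGANTCA, where N is any base, also occurred in none of the 4 and in 6.75% of all promoters. The CCAAT box occurred 2 times in *Megf6* and in none of the other 3, against 33.8% of all promoters. The searches concern letters in these windows only.

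The 3 relatives of *Pear1* did not move together under bleo. *Megf6* (ENSMUSG00000057751, chr4:154170730-154275713 on the plus strand) fell, and *Megf11* (ENSMUSG00000036466, chr9:64385626-64709205 on the plus strand) and *Megf10* (ENSMUSG00000024593, chr18:57133090-57297467 on the plus strand) rose. *Megf6* had 127, 86.2 and 151 normalized counts in WT vehicle and 99.4, 80.7 and 67.7 in Pear1-/- vehicle, against 26.6, 29.6 and 23.3 in WT bleo and 21.3, 28.4 and 15.3 in Pear1-/- bleo. No bleo library reached a vehicle library, and the log2 fold change was -2.18 (SE 0.24, adjusted p = 2.43e-07; -2.31 without WT vehicle replicate 2) in WT and -1.92 (SE 0.25, adjusted p = 2.69e-06) in Pear1-/-. The bleo groups of the genotypes overlapped, with a difference of -0.29 (SE 0.3, adjusted p = 0.444).

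*Megf11* rose under bleo in both genotypes. Vehicle libraries held 43.7, 14.2 and 45.8 normalized counts in WT and 32.2, 20.4 and 21.8 in Pear1-/-, and bleo libraries held 118, 162 and 139.7 in WT and 178, 234 and 182 in Pear1-/-. The lowest bleo library was above the highest vehicle library in each genotype, with log2 fold changes of 2.06 (SE 0.28, adjusted p = 8.10e-06) and 2.99 (SE 0.27, adjusted p = 1.40e-07). WT vehicle replicate 2 was the lowest of the 12, at 14 counts, and without it the WT value was 1.71 (adjusted p = 1.08e-11), below the 2.06 of *Ppp1cc*. The larger estimate under the Pear1-/- label was not past the threshold as an interaction (0.93, SE 0.42, adjusted p = 0.091) with all libraries, and was so without WT vehicle replicate 2, at 1.26 (adjusted p = 0.000248), and with no filter on low counts, at 0.85 (adjusted p = 0.0143). Between the bleo groups the difference was 0.49 (SE 0.22, adjusted p = 0.0762), with all 3 libraries labelled Pear1-/- bleo above the WT ones. It passed the threshold without WT vehicle replicate 2 (0.48, adjusted p = 0.000472), without WT vehicle replicate 3 (0.49, adjusted p = 0.0491), with no filter on low counts (0.50, adjusted p = 0.00269) and with only the groups compared (0.50, adjusted p = 1.59e-05).

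*Megf10*, the engulfment receptor, rose mainly in the libraries labelled Pear1-/-. These went from 36.0, 19.5 and 32.7 normalized counts in vehicle to 123, 136 and 125 in bleo, without overlap, a log2 fold change of 2.13 (SE 0.23, adjusted p = 2.03e-07). In WT the groups overlapped, with 72.8, 37.5 and 52.7 in vehicle and 91.8, 92.8 and 64.8 in bleo, and the estimate was 0.64 (SE 0.22, adjusted p = 0.0168), or 0.49 (adjusted p = 0.0192) without WT vehicle replicate 2. The difference between the genotypes was tested directly and gave 1.49 (SE 0.33, adjusted p = 0.00151), and 1.62 (adjusted p = 1.59e-06) without WT vehicle replicate 2. Of its parts, *Megf10* was lower under the Pear1-/- label in vehicle, at -0.88 (SE 0.26, adjusted p = 0.0477), and higher in bleo, at 0.61 (SE 0.2, adjusted p = 0.017). The vehicle difference was lost in 14 of 21 other settings, DESeq2 and limma among them, and each library but WT vehicle replicate 2, left out, ended it (estimates from -1.01 to -0.59). The interaction kept its call in all 20 settings that could give it. The WT bleo rise and the difference between the bleo groups were each lost in 4 of 21 settings, DESeq2 (adjusted p = 0.0539 and 0.0614) and limma (adjusted p = 0.0619 and 0.0852) among them, and the latter was also lost without WT bleo replicate 3 (0.45, adjusted p = 0.112) and without Pear1-/- bleo replicate 2 (0.55, adjusted p = 0.0704).

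*Ppp1ca* (ENSMUSG00000040385, chr19:4192065-4195420 on the plus strand), the gene of the alpha catalytic subunit, *Ppp1cb* (ENSMUSG00000014956, chr5:32458843-32517433 on the plus strand), of the beta subunit, and *Ppp1cc* (ENSMUSG00000004455, chr5:122158278-122175273 on the plus strand), of the gamma subunit, encode close copies of one enzyme that differ most at the tail. The coding sequences from the stop codon backwards show this, and bear on how well reads can be told apart. The last 60 coding bases of the transcripts ENSMUST00000046094, ENSMUST00000015100 and ENSMUST00000102528 in GENCODE M21 (GRCm38) are given with the stop codon in capitals.
*Ppp1ca*, chr19:4195033-4195092, plus strand: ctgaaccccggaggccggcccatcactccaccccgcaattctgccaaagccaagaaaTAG
*Ppp1cb*, chr5:32490999-32491058, plus strand: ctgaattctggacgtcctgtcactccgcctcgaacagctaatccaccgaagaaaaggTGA
*Ppp1cc*, chr5:122174085-122174144, plus strand: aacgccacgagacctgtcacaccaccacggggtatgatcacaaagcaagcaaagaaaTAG
Over the whole coding sequence the pairs were 73.3% to 76.9% identical, and over these last 60 bases 48.5% to 57.6%. None of the windows of 75 bases, which is shorter than the study's reads, was shared among the 3 genes. Other genes did share windows: 55.2% of the windows of the *Ppp1cc* transcript also occur elsewhere, 1260 of 2310 in the processed pseudogene *Ppp1ccb*, whose highest count in any library was 9. Of the *Ppp1ca* transcript 16.5% also lies in *Rad9a* or an antisense gene on the opposite strand, and *Rad9a* had at most 271 counts. The kit is not described as marking strand and the handling of reads with several positions is not given in the sources used here, so the levels of *Ppp1ca* and *Ppp1cc* are uncertain to that extent. In the other 5 genes no window of the 1 transcript searched was shared, but exons of *Pear1* and *Ppp1cb* overlap on the same strand with those of *Lrrc71* and *Gm43312*, whose highest counts in any library were 22 and 9.

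*Ppp1ca* rose under bleo in both genotypes. Its normalized counts were 1429, 1724 and 1416 in vehicle-treated WT, 1754, 1789 and 1845 in vehicle-treated Pear1-/-, 2744, 2693 and 2626 in bleo-treated WT and 3092, 3166 and 3179.8 in bleo-treated Pear1-/-. No bleo library overlapped a vehicle library. The log2 fold changes were 0.83 (SE 0.074, adjusted p = 1.05e-08; 0.99 without WT vehicle replicate 2) in WT and 0.81 (SE 0.074, adjusted p = 1.93e-08) in Pear1-/-, and their difference was -0.02 (SE 0.1, adjusted p = 0.917), or -0.20 (adjusted p = 0.0245) without WT vehicle replicate 2. Between the bleo groups it was higher under the Pear1-/- label by 0.21 (SE 0.073, adjusted p = 0.0222), a call that 11 of 21 other settings did not keep: limma (adjusted p = 0.0504), the fit with no filter on low counts (adjusted p = 0.0898) and the fits without any 1 of the 6 bleo or 3 Pear1-/- vehicle libraries (estimates from 0.19 to 0.22). In vehicle the estimate was 0.23 (SE 0.074, adjusted p = 0.0578), and 0.40 (adjusted p = 6.96e-08) without WT vehicle replicate 2, which at 1724 normalized counts lay nearer to the libraries labelled Pear1-/- vehicle than to its own group.

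*Ppp1cb* moved least. It had 924, 955 and 1015 normalized counts in WT vehicle, 827, 844 and 743 in WT bleo, 978, 1099 and 755 in Pear1-/- vehicle and 852, 820.0 and 889 in Pear1-/- bleo. The WT groups did not overlap and the Pear1-/- groups did. The estimate in WT was -0.25 (SE 0.1, adjusted p = 0.0361), past the threshold in 8 of 21 other settings, and in Pear1-/- it was -0.14 (SE 0.1, adjusted p = 0.227). Without WT vehicle replicate 2 the WT value was -0.19 (adjusted p = 0.11), and 9 of the 11 other libraries, left out in turn, also ended the call, the farthest being WT bleo replicate 3 (-0.15, adjusted p = 0.256). Without Pear1-/- vehicle replicate 3, the lowest of its group, the Pear1-/- value was -0.29 (adjusted p = 0.00893).

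*Ppp1cc* rose in WT bleo. WT libraries went from 107, 202 and 118 normalized counts in vehicle to 431, 459.9 and 442 in bleo, and libraries labelled Pear1-/- from 193, 178 and 188 to 237, 241 and 231. The groups of each genotype did not overlap, and the WT bleo libraries lay above all others. The log2 fold change was 1.64 (SE 0.15, adjusted p = 4.85e-08) in WT and 0.35 (SE 0.15, adjusted p = 0.0542) in Pear1-/-, where 7 of 21 other settings passed the threshold, among them the fits without WT vehicle replicate 1, 2 or 3 (adjusted p = 0.0217, 0.00124 and 0.0358). The interaction was -1.29 (SE 0.21, adjusted p = 0.000157), and between the bleo groups *Ppp1cc* was lower under the Pear1-/- label, at -0.92 (SE 0.14, adjusted p = 3.82e-05). Without WT vehicle replicate 2 the WT change was 2.06 (adjusted p = 3.49e-24), the interaction -1.73 (adjusted p = 3.13e-15), and the vehicle difference, 0.37 (SE 0.16, adjusted p = 0.131) with all libraries, was 0.79 (adjusted p = 4.01e-07). Most leukocyte markers moved the same way: 7 of 10 were higher and 2 lower in WT bleo than in WT vehicle, beside 31.4% and 36.5% of all tested genes, and 7 of 10 were lower in Pear1-/- bleo than in WT bleo, beside 24.0%. *S100a8*, a neutrophil gene named after its value was seen, went the other way, with 400 to 476 normalized counts in WT bleo and 775 to 845 in Pear1-/- bleo (0.90, adjusted p = 0.123, and 0.89, adjusted p = 1.08e-05, without WT vehicle replicate 2). *Ptprc*, the gene of the leukocyte antigen CD45, had 3303 ± 479, 3818 ± 263, 7616 ± 97.8 and 3365 ± 109 normalized counts in WT and Pear1-/- under vehicle, then WT and Pear1-/- under bleo (SD, n = 3). The part of leukocyte RNA in the level of *Ppp1cc* was not tested.

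Read against all genes, bleo moved a large part of what was tested. Of the 7 genes, 4 were higher and 3 lower in WT bleo than in WT vehicle, where 31.4% of the 17418 tested genes were called higher and 36.5% lower. For bleo against vehicle under the Pear1-/- label, 3 rose (*Megf10*, *Megf11*, *Ppp1ca*) and 2 fell (*Pear1*, *Megf6*), beside 29.1% and 33.1% of all genes. Between the vehicle groups 0 were higher by edgeR, where 1.95% of all genes were, and 1 was lower (*Megf10*), where 5.29% were, with 4 of the 7 at an unadjusted p under 0.05 and 1, *Ppp1ca*, called by DESeq2. Without WT vehicle replicate 2, 5 were called there (*Megf6* at -0.68 (adjusted p = 0.000413), *Megf10* at -1.03 (adjusted p = 0.000221), *Megf11* at -0.78 (adjusted p = 0.0103), and *Ppp1ca* and *Ppp1cc* as above), where 55.3% of the genes tested were called in either direction. Between the bleo groups 3 were higher under the Pear1-/- label (*Pear1*, *Megf10*, *Ppp1ca*) and 1 lower (*Ppp1cc*), beside 22.1% and 24.0%. The interaction called 2 as higher (*Pear1*, *Megf10*) and 1 as lower (*Ppp1cc*), beside 17.8% and 19.3%. Without WT vehicle replicate 2 it called 5 of the 7, beside 46.4% of all genes in either direction. The bleo comparisons and the genotype comparisons share groups with each other, so their values are given side by side only.

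The share of each gene in the summed counts of the 3 PP1 catalytic genes does not depend on how libraries are scaled. *Ppp1ca* held 57.8% ± 2.16 in vehicle-treated WT, 61.5% ± 4.14 in vehicle-treated Pear1-/-, 68.3% ± 0.805 in bleo-treated WT and 74.3% ± 0.552 in bleo-treated Pear1-/- (SD, n = 3). *Ppp1cb* held 36.8% ± 3.40, 32.1% ± 4.53, 20.4% ± 0.838 and 20.2% ± 0.670. The *Ppp1cc* share was 4.34%, 7.01% and 4.63% in vehicle-treated WT, 6.60%, 5.81% and 6.73% in vehicle-treated Pear1-/-, 10.8%, 11.5% and 11.6% in bleo-treated WT and 5.67%, 5.69% and 5.36% in bleo-treated Pear1-/-. Without WT vehicle replicate 2 the mean shares of vehicle-treated WT were 56.8% for *Ppp1ca*, 38.7% for *Ppp1cb* and 4.48% for *Ppp1cc*. The difference was 5.97 percentage points for WT bleo less WT vehicle, -5.72 for Pear1-/- bleo less WT bleo and -0.81 for Pear1-/- bleo less Pear1-/- vehicle, each without overlap. Under the Pear1-/- label the bleo libraries thus had the lower *Ppp1cc* shares and the higher *Ppp1cc* counts. Exact two-sided permutation tests gave p = 0.1 for each, the smallest that 3 libraries against 3 allow, and p = 0.15 after adjustment over the 12 shares compared, so this design could not reach 0.05. The *Ppp1cb* share did not differ beyond its spread between the bleo groups (exact permutation p = 0.6). With counts divided by gene length first, the *Ppp1ca* share was 82.3% in vehicle-treated WT, 83.5% in vehicle-treated Pear1-/-, 84.0% in bleo-treated WT and 89.5% in bleo-treated Pear1-/-, so its WT difference shrank from 10.5 to 1.67 percentage points, and the *Ppp1cc* share was 5.55%, 6.38%, 10.2% and 4.94%. The summed normalized counts of the 3 genes were 2629.9 ± 222 in vehicle-treated WT, 2926 ± 139 in vehicle-treated Pear1-/-, 3937 ± 109 in bleo-treated WT and 4236 ± 59.8 in bleo-treated Pear1-/-.

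**Figure D2:**
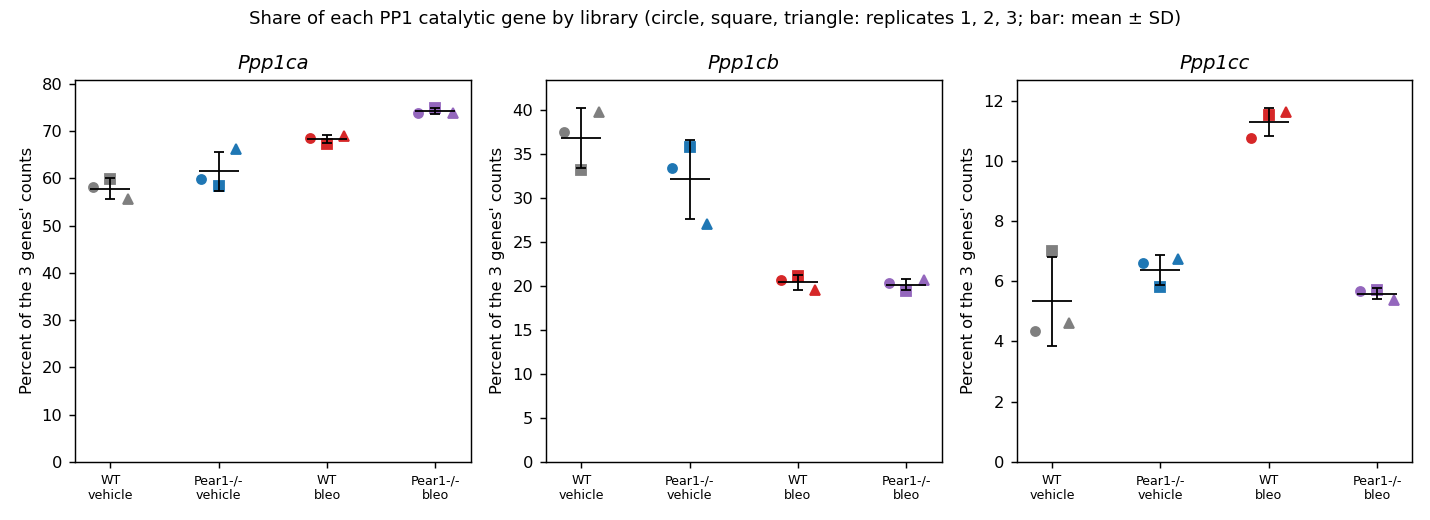
Percent of the summed counts of the 3 PP1 catalytic genes (y axis, from 0) that each gene held in each of the 12 libraries, with the group mean ± SD (n = 3) as a bar. *Ppp1cc* held 10.8% to 11.6% in WT bleo and at most 7.01% in any other library.

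Per kilobase of exon (normalized counts divided by the length of all exons of the gene), *Ppp1ca* had the highest level of the 7 in every group, from 604 in WT vehicle to 1248 in Pear1-/- bleo. In both vehicle groups *Ppp1cb* (88.4 and 86.5) and *Pear1* (80.6 and 76.6) followed, with ranges that overlapped, and then *Ppp1cc* (41.5 and 54.4). In WT bleo *Ppp1cc* was the second, at 129.8, above *Ppp1cb* at 73.7 and *Pear1* at 37.4. In Pear1-/- bleo *Ppp1cb* was again above *Ppp1cc*, at 78.2 and 69.0, with *Pear1* at 52.7. The MEGF genes were the 3 lowest throughout: *Megf6* led them in vehicle (15.4 in WT) and was the lowest of all in bleo (3.36 in WT and 2.75 in Pear1-/-). *Megf11* and *Megf10*, at 12.5 and 10.8 in WT bleo and 17.7 and 16.6 in Pear1-/- bleo, overlapped in both bleo groups and in Pear1-/- vehicle. The order was the same per length of 1 principal transcript.

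Over the 12 libraries the genes whose log2 CPM was most like that of a member were found by Pearson's r, as a description over libraries that fall into groups. For *Pear1* they were *H6pd*, *Ecm1* and *Rbpms* (r = 0.993, 0.993 and 0.992), among 337 genes with r over 0.95. *Ppp1cc* was most like *Slfn8*, *Noc2l* and *Lrrc25* (r = 0.992, 0.991 and 0.990), and *Ppp1ca* like *Eif5a*, *Cd63* and *Tsfm* (r = 0.999, 0.997 and 0.996). *Megf11* was most like *Ttc39b*, *Cspg4* and *Fam199x* (r = 0.985, 0.980 and 0.980), *Megf6* like *Arvcf*, *Gm10722* and *Col13a1* (r = 0.978, 0.978 and 0.976), and *Megf10* like *Fam20b*, the mitotic kinesin gene *Kif11* and *E430025E21Rik* (r = 0.960, 0.959 and 0.958). *Ppp1cb* had no gene with r over 0.95.

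The genes that steer or inhibit PP1 changed in both directions under bleo. Of 53 regulatory genes in 6 lists, 48 were tested, and 18 (37.5%) rose and 16 (33.3%) fell in WT bleo against WT vehicle, beside 31.4% and 36.5% of all tested genes, with a median log2 fold change of 0.08 beside -0.07 over all tested genes. For bleo against vehicle under the Pear1-/- label 19 (39.6%) rose and 16 (33.3%) fell, beside 29.1% and 33.1%, with a median of 0.07 beside -0.05. Under the Pear1-/- label 11 (22.9%) were higher and 18 (37.5%) lower in bleo than in WT bleo, beside 22.1% and 24.0%, and 20 to 33 in all were called with 1 library left out. Between the vehicle groups 1 (2.08%) was higher and 3 (6.25%) lower, beside 1.95% and 5.29%, but with 1 library left out 0 to 21 were called, the 21 without WT vehicle replicate 2, where 55.3% of all genes were called, and 0 without any 1 of the 5 other vehicle libraries.

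Among the 7 tested inhibitors, 3 were higher and 2 lower in WT bleo, beside 31.4% and 36.5% of all genes. *Ppp1r14a*, which encodes CPI-17, the inhibitor of smooth muscle myosin phosphatase, had 480.2 ± 95.7 normalized counts in WT vehicle and 107 ± 18.9 in WT bleo, a log2 fold change of -2.15 (SE 0.15, adjusted p = 1.62e-09), and 360.4 ± 40.2 and 139 ± 13.0 in the Pear1-/- groups (-1.37, adjusted p = 5.02e-07). Its bleo change differed between the genotypes by 0.79 (SE 0.22, adjusted p = 0.00846). *Ppp1r2*, inhibitor 2, fell in both genotypes, with log2 fold changes of -0.62 and -0.51. *Ppp1r1a*, inhibitor 1, rose from a few counts, at 2.31 ± 1.31 and 2.71 ± 1.72 normalized counts in the vehicle groups, to 28.4 ± 10.7 in WT bleo and 20.1 ± 10.8 in Pear1-/- bleo.

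Of the 15 regulators listed as cytoskeleton targeting, most of them tied to myosin, actin or adhesions, 4 rose and 8 fell in WT bleo, with the same numbers for Pear1-/- bleo against Pear1-/- vehicle, beside 31.4% and 36.5% and 29.1% and 33.1% of all tested genes. *Tns1*, the focal adhesion protein tensin 1, fell from 4375 ± 819 to 1205 ± 32.9 normalized counts in WT (-1.85, adjusted p = 2.26e-11), and *Ppp1r12b* and *Phactr1* had log2 fold changes of -1.85 and -1.83. *Ppp1r12a*, the myosin-targeting subunit MYPT1, was at 613 ± 33.3 in WT vehicle and 638 ± 49.0 in WT bleo (0.07, adjusted p = 0.464, and 0.17, adjusted p = 0.039, without WT vehicle replicate 2), and was lower under the Pear1-/- label in bleo, at -0.32 (SE 0.079, adjusted p = 0.00258). Between the bleo groups 4 were higher and 8 lower under the Pear1-/- label, beside 22.1% and 24.0%. Of those averaging 3 or more on the log2 CPM scale, *Ppp1r12c*, *Ppp1r13b* and *Ppp1r9b* differed most, at -0.93, -0.69 and -0.66, and the weakly counted *Ppp1r13l*, named after its value was seen, was at 1.41. Between the vehicle groups *Ppp1r18* was at 0.36 (adjusted p = 0.0394) with all libraries and at 0.60 (adjusted p = 1.33e-09) without WT vehicle replicate 2. Leaving out any other vehicle library, any WT bleo library or Pear1-/- bleo replicate 2 or 3 ended the call of *Ppp1r18* by edgeR.

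*Ppp1r15a* (GADD34), which brings PP1 to the translation factor eIF2alpha under stress, fell in both genotypes. It had 6093 ± 558 and 6672 ± 248 normalized counts in WT and Pear1-/- vehicle, and 3809.6 ± 29.5 and 2409.9 ± 52.4 in bleo, with log2 fold changes of -0.67 (SE 0.067, adjusted p = 6.03e-08) and -1.46 (SE 0.068, adjusted p = 1.07e-12) and an interaction of -0.80 (SE 0.095, adjusted p = 2.64e-06). Its constitutive counterpart *Ppp1r15b* rose in WT bleo (0.37, adjusted p = 0.000421) and was lower under the Pear1-/- label in bleo (-0.44, adjusted p = 0.000125). Of the 9 tested nuclear and mitotic partners, 3 were higher and 2 lower in WT bleo, beside 31.4% and 36.5% of all genes, and 5 and 3 in Pear1-/-, beside 29.1% and 33.1%. *Mki67*, the proliferation antigen Ki-67, rose from 91.7 ± 4.92 normalized counts in WT vehicle to 436 ± 11.9 in WT bleo, and under the Pear1-/- label from 70.6 ± 16.4 to 370.3 ± 7.65. *Ppp1r8* (NIPP1) was higher under the Pear1-/- label in bleo, by 0.37 (adjusted p = 0.00108). The 6 tested glycogen-targeting genes had 2 higher and 3 lower in WT bleo, beside 31.4% and 36.5% of all tested genes, and 3 in all were called without WT bleo replicate 1. Of these genes *Ppp1r3a*, the muscle glycogen-targeting subunit, went from 219.9 ± 119 to 48.1 ± 8.89 normalized counts (-2.16, adjusted p = 0.00307), with a wide spread in WT vehicle, and at -2.50 (adjusted p = 2.84e-20) without WT vehicle replicate 2. The 9 other partners tested had 5 higher and 0 lower by edgeR in WT bleo, beside the same shares, and 3 in all were called without WT vehicle replicate 3. Among them *Ppp1r37* and *Ppp1r21* led with 1.74 and 1.32.

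**Figure D3:**
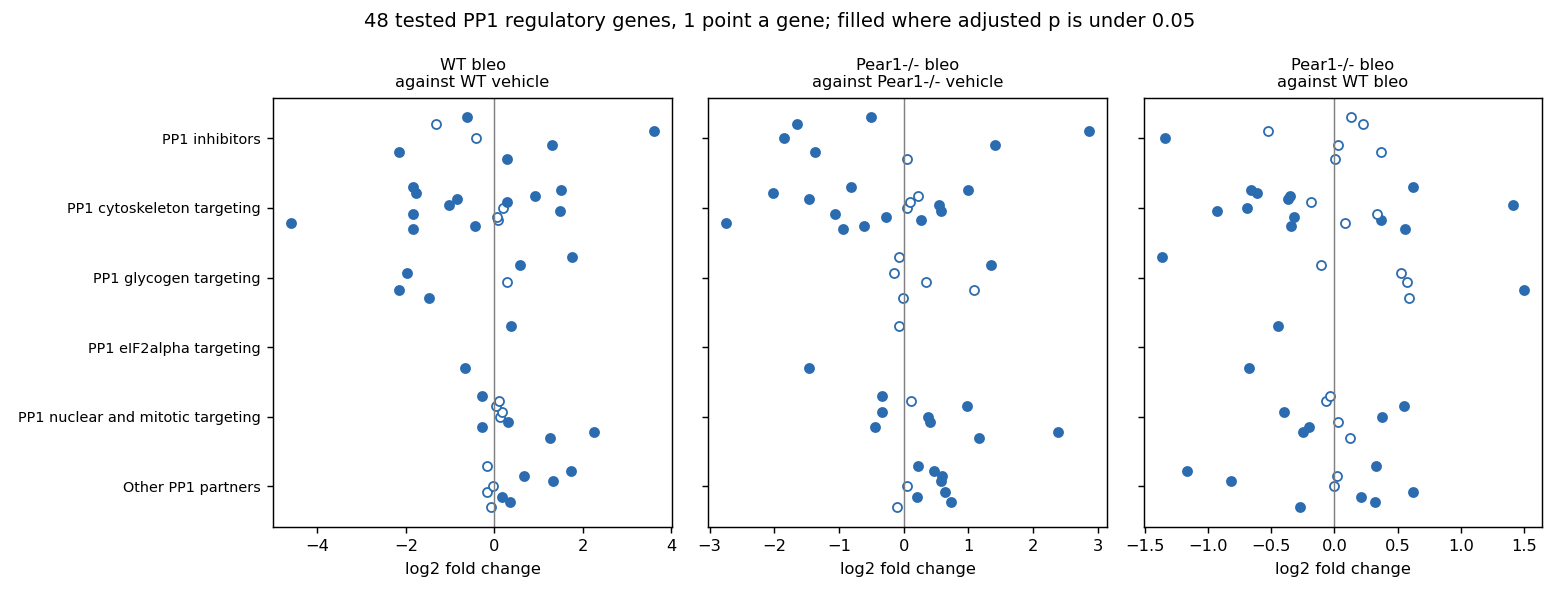
Log2 fold change (x axis) of the 48 tested PP1 regulatory genes in 3 comparisons, by list (y axis), with 1 point per gene, filled where the adjusted p was under 0.05. In WT bleo 18 were higher and 16 lower, and between the bleo groups 11 were higher and 18 lower.

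The catalytic subunits of the other phosphatases of the same family gave a comparison for *Ppp1cc*. Of 8, 4 were higher and 0 lower by edgeR in WT bleo, beside 31.4% and 36.5% of all genes, and 4 were lower and 1 higher in Pear1-/- bleo than in WT bleo, beside 24.0% and 22.1%. *Ppp2ca*, the catalytic alpha subunit of PP2A, had 419 ± 62.2, 453 ± 16.3, 1219 ± 74.4 and 504 ± 10.7 normalized counts in WT and Pear1-/- under vehicle, then WT and Pear1-/- under bleo (SD, n = 3), which is the pattern of *Ppp1cc*, with 1.55 (SE 0.088, adjusted p = 1.18e-11) in WT bleo and -1.29 (SE 0.086, adjusted p = 4.91e-10) between the bleo groups. The leukocyte markers, at 11819 to 12007 CPM in WT bleo and 5392 to 5512 in Pear1-/- bleo, had the same order, and their part in the levels of these phosphatase genes was not tested.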

How the data were processed

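RNA-seq was made from 12 libraries of sorted lung Pdgfra+ cells with SMART-Seq v4, and the authors aligned reads with HISAT2 to GRCm38. They deposited a table of counts per gene, used here as the raw counts, and the same counts divided by size factors, a normalized signal that the authors deposited and that equals the counts divided by DESeq2 size factors. The counting program is not given in the sources used here. Library totals were 6702948 to 10447101, so that 3 counts are 0.287 to 0.448 CPM.

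Members were found by symbol. Of the gene IDs 40394 (99.1%) were in GENCODE M21, from which positions, lengths and coding sequences were taken, and promoters are from RefSeq (GRCm38.p6). Genes were tested with edgeR 4.0.16 (R 4.3.3; TMM scaling, filterByExpr, robust quasi-likelihood fit of the 4 groups over all 12 libraries, Benjamini-Hochberg adjustment over 17418 genes), and a call is an adjusted p under 0.05. Log2 CPM used a prior count of 2. Shares of the PP1 genes were compared by exact permutation (scipy 1.17.1). Alternatives were DESeq2 1.42.0, limma 3.58.1 on log2(normalized count + 1), DESeq2 size factors or unscaled library totals, no filter or at least 10 counts in 3 libraries, the groups compared only, a replicate block and each library left out, and, chosen after seeing the data, leaving out immunoglobulin genes. Scripts were tested on simulated data. Besides the members, named genes were the fixed ones of each list (*Ppp1r12a*, *Ppp1r15a*, *Ppp1r14a*, *Ppp1r1a*, *Ppp1r2*, *Ppp1r8*, *Ptprc*, *Pecam1*, *Epcam*, *Pdgfra*, *Itga2b* and *Smad3*, with a further gene and its list not reported here), in each comparison up to 3 called genes of a list, those of largest change whose groups did not overlap and whose log2 CPM averaged 3 or more, and the 3 genes most like each member. *Ppp1ccb* and *Rad9a* are named because they share sequence with a member. The members and lists were chosen with earlier results of these data known.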

Additional observations from a re-analysis of the deposited data

Results flagged for a closer look

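With 3 libraries in each group, single values were not tested for outlying libraries. Across all genes WT vehicle replicate 2 stood apart from its group. The results below stand out because the bleo change differed between the libraries labelled Pear1-/- and WT, by the interaction term of the edgeR fit. For *Pear1* the difference was 0.56 (SE 0.11, adjusted p = 0.000655): the log2 fold change was -1.09 in WT and -0.54 under the Pear1-/- label. For *Megf10* it was 1.49 (SE 0.33, adjusted p = 0.00151), with 0.64 in WT and 2.13 under the Pear1-/- label. For *Ppp1cc* it was -1.29 (SE 0.21, adjusted p = 0.000157), with 1.64 and 0.35. Without WT vehicle replicate 2 the differences were 0.48, 1.62 and -1.73. The *Pear1* counts go against what the Pear1-/- label describes, so these are differences between labels. In each case all 3 Pear1-/- bleo libraries lay beyond the WT bleo libraries on the side of the difference. Beside these, the mesenchymal markers summed to 12402 to 12524 CPM in WT bleo and 32380.4 to 33149 in Pear1-/- bleo, and the leukocyte markers to 11819 to 12007 and 5392 to 5512. Of the 8 mesenchymal markers 5 were higher under the Pear1-/- label, beside 22.1% of all genes, *Col1a1* by 1.73, and *Dcn* (0.13, adjusted p = 0.696, and 0.0102 without WT vehicle replicate 2), *Tcf21* (-0.00, adjusted p = 0.994) and *Inmt* (0.12, adjusted p = 0.216) were not called by edgeR. Their part in the 3 differences was not tested.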

How the results depend on the processing

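Counts of the 7 genes called depended on the setting mainly between the vehicle groups. There 1 was called, against 3 with no filter on low counts and 0 by limma or with only the groups compared (3 and 2 of the 7 at an unadjusted p under 0.05), and 0 to 5 with 1 library left out. The 5 came without WT vehicle replicate 2, and each other library left out gave 0 by edgeR, with 2 to 4 at an unadjusted p under 0.05. Between the bleo groups 4 were called, against 2 by limma and 2 to 5 with 1 library left out (2 without WT bleo replicate 3 and 2 without Pear1-/- bleo replicate 2), and in the interaction 3, against 3 to 5 (5 without WT vehicle replicate 2). Leaving out 1 library gave 6 to 7 in WT and 5 to 6 in Pear1-/- for bleo against vehicle. *Pear1* between the vehicle groups turned from -0.08 to 0.018 with no filter (adjusted p = 0.938) and was -0.23 with unscaled library totals. Values near 0 also turned for *Ppp1cb* between the vehicle groups (0.062 with no filter, -0.11 to 0.14 with 1 library left out), and in the interaction for *Megf6* (-0.051 to 0.39 with 1 library left out, below 0 without Pear1-/- bleo replicate 2), *Ppp1ca* (0.13 with unscaled library totals, -0.20 to 0.028 with 1 library left out, above 0 without WT vehicle replicate 1 or 3) and *Ppp1cb* (-0.081 to 0.17 with 1 library left out, below 0 without Pear1-/- vehicle replicate 3 or WT bleo replicate 3). The *Ppp1cb* share between the bleo groups was -0.732 to 0.11 percentage points with 1 library left out, above 0 without replicate 2 of Pear1-/- bleo or WT bleo. The cause was not tested. Unscaled library totals moved the median log2 fold change of all genes to -0.17 in WT bleo, -0.15 between the vehicle groups and 0.15 in the interaction.

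The replicate numbers did not pair the libraries (correlations of same-numbered deviations from -0.161 to 0.0997), and a fit with the replicate number as a block called 7, 5, 1, 4 and 3 of the 7 genes in the comparisons above, as without it. Of all single values of the 7 genes, 643 kept their direction and side of the threshold under the alternatives, 46 lost a call, 22 gained one and 17 turned. In a single library the counts were lowest for *Megf11* and *Megf6*, at 14 and 16. By mean log2 CPM *Megf6* and *Megf10* were lowest, at 2.84 and 3.11, with *Megf11* at 3.54.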

Other observations

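The genes that work with MEGF10-type receptors in the engulfment of dying cells, 12 in all, had 9 higher and 2 lower in WT bleo, beside 31.4% and 36.5% of all tested genes, and 7 lower and 2 higher in Pear1-/- bleo than in WT bleo, beside 24.0% and 22.1%. *C1qa*, a complement protein that tags material for uptake and is made by macrophages, rose from 884 ± 137 to 17762 ± 289.6 normalized counts in WT (SD, n = 3), with 727 ± 16.6 and 5343 ± 119 in the Pear1-/- groups. The leukocyte markers moved with it, summing to 2534 to 3328 CPM in WT vehicle, 11819 to 12007 in WT bleo and 5392 to 5512 in Pear1-/- bleo, and their part in the change of this list was not tested. *Gulp1*, the adaptor of engulfment receptors, had log2 fold changes of -1.71 in WT (adjusted p = 1.72e-10) and -1.14 under the Pear1-/- label (adjusted p = 4.27e-08) by edgeR, the opposite direction to *Megf10*. Of 9 other genes of receptors and secreted proteins with EGF-like domains, among them *Egfl7*, also an endothelial marker here, 1 was higher and 4 were lower in WT bleo, beside the same 31.4% and 36.5%. *Stab1*, a scavenger receptor of macrophages and endothelium, went from 271 ± 14.4 to 2123 ± 99.6 normalized counts in WT, and *Dner*, a Notch ligand, from 485 ± 25.6 to 63.5 ± 0.287.

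*Smad3*, a transcription factor of the TGF-beta pathway, had log2 fold changes of -1.08 and -0.72 under bleo in WT and Pear1-/-, with adjusted p = 1.49e-10 and 6.57e-08. The epithelial markers summed to 4781 to 6069, 5700.4 to 6520.4, 1654 to 1684 and 736 to 745 CPM in WT and Pear1-/- under vehicle, then WT and Pear1-/- under bleo, the pericyte markers to 277 to 298, 289 to 324, 176 to 189.7 and 339 to 357, and the erythroid markers to 13.8 to 31.3, 27.2 to 30.0, 7.29 to 8.59 and 30.0 to 32.6. The high pericyte sum in Pear1-/- bleo was mostly that of *Pdgfrb*, at 2304 ± 64.2 normalized counts there and 1062 ± 37.8 in WT bleo (SD, n = 3). Between the bleo groups 2 of the 6 pericyte markers were higher under the Pear1-/- label and 1 lower, beside 22.1% and 24.0% of all genes. *Epcam* differed by -0.30 between the bleo groups (adjusted p = 0.0366).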
